A study of Mus musculus with 26 samples.

Results

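Nuclear genes for the subunits of the mitochondrial respiratory chain were read out in whole-liver RNA. The genes were chosen by symbol, namely those starting with Nduf, Uqcr, Cox4, Cox5, Cox6, Cox7, Cox8 or Atp5, together with Sdha, Sdhb, Sdhc, Sdhd and Cyc1, leaving out symbols that hold -ps. They came to 99 of the 55401 genes in the count table: 39 of complex I, 8 complex I assembly factors that share the Nduf stem, 4 of complex II, 9 of complex III, 21 of complex IV and 18 of complex V. All mice were male C57BL/6, fed a high-fat diet (high in cholesterol as well, per the study's design text) from 4 weeks of age for 18 weeks. The UCMSC-Exos group, 8 libraries numbered 1 to 3 and 5 to 9, had received exosomes of umbilical cord mesenchymal stem cells by tail vein every 72 h for 8 weeks. The untreated HFD group, 9 libraries, ate the same diet, and no injection is listed for it, so the exosomes and the injections cannot be told apart. The other group, 9 samples, given the engineered particle LSCR, was not analysed here. No mice on a normal diet were among the samples, so the values say nothing of how far either group lay from a lean liver.

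The respiratory chain passes electrons through complexes I to IV in the inner mitochondrial membrane and pumps protons, and complex V uses the proton gradient to make ATP. Complex I takes electrons from NADH, complex II from succinate, complex III hands them to cytochrome c and complex IV to oxygen. Complex II is wholly nuclear-encoded, whereas the other complexes also hold subunits made from mitochondrial DNA, so that 2 genomes have to be expressed together. In liver, fatty acid oxidation feeds the chain with electrons.

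Libraries held between 32941467 and 36065074 counted reads, and values below are CPM, that is reads relative to library size, after TMM scaling unless stated. Of the 99 members, 95 had at least 1 read and 92 passed the filter on low counts; Ndufa11b, Cox4i2, Cox6a2, Cox7b2, Cox8b, Cox8c and a second, readless identifier of Atp5o did not. Hepatocyte markers were high in every library, summing to 40270 to 75130 CPM in UCMSC-Exos livers and 33450 to 51880 CPM in untreated HFD livers. Library 9 of untreated HFD also held skeletal muscle transcripts, with 8 of 8 muscle markers above 0 at a sum of 10590 CPM. Of these, Tnnc2 was near 0 at 0.11 CPM, and the others had 417 CPM or more. The sum was 0.59 to 2.54 CPM in UCMSC-Exos livers and at most 1.28 CPM in the other untreated livers. Library 3 of untreated HFD held exocrine pancreas transcripts at a sum of 10160 CPM, against 11.3 to 18.4 CPM in UCMSC-Exos livers, and gave 0.297% of its reads to the mitochondrially encoded subunits, against 3.16 to 4.58% in UCMSC-Exos livers. Library 9 of UCMSC-Exos had higher summed biliary and stellate cell markers than any other library of either group. Results that rest on these libraries are given with and without them.

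Most respiratory chain subunits were slightly higher in UCMSC-Exos livers, by amounts that did not pass the test gene by gene. Over the 92 tested members the median fold change was 0.12 (log2), with 74 above 0, against a median of -0.02 over all 16238 genes tested. Of the 92, 3 members passed edgeR's quasi-likelihood test at an adjusted p of 0.05; all 3 were higher with UCMSC-Exos and all were complex I assembly factors, Ndufaf6, Ndufaf2 and Ndufaf1. Over all genes, 20.2% passed in either direction and 9.73% were higher, so the members' share was below that background. No subunit built into a finished complex passed. The 95% interval of the fold change lay wholly within 1.5-fold in both directions for 77 of the 92 members (83.7%), against 53.8% of all genes tested.

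**Figure D1:**
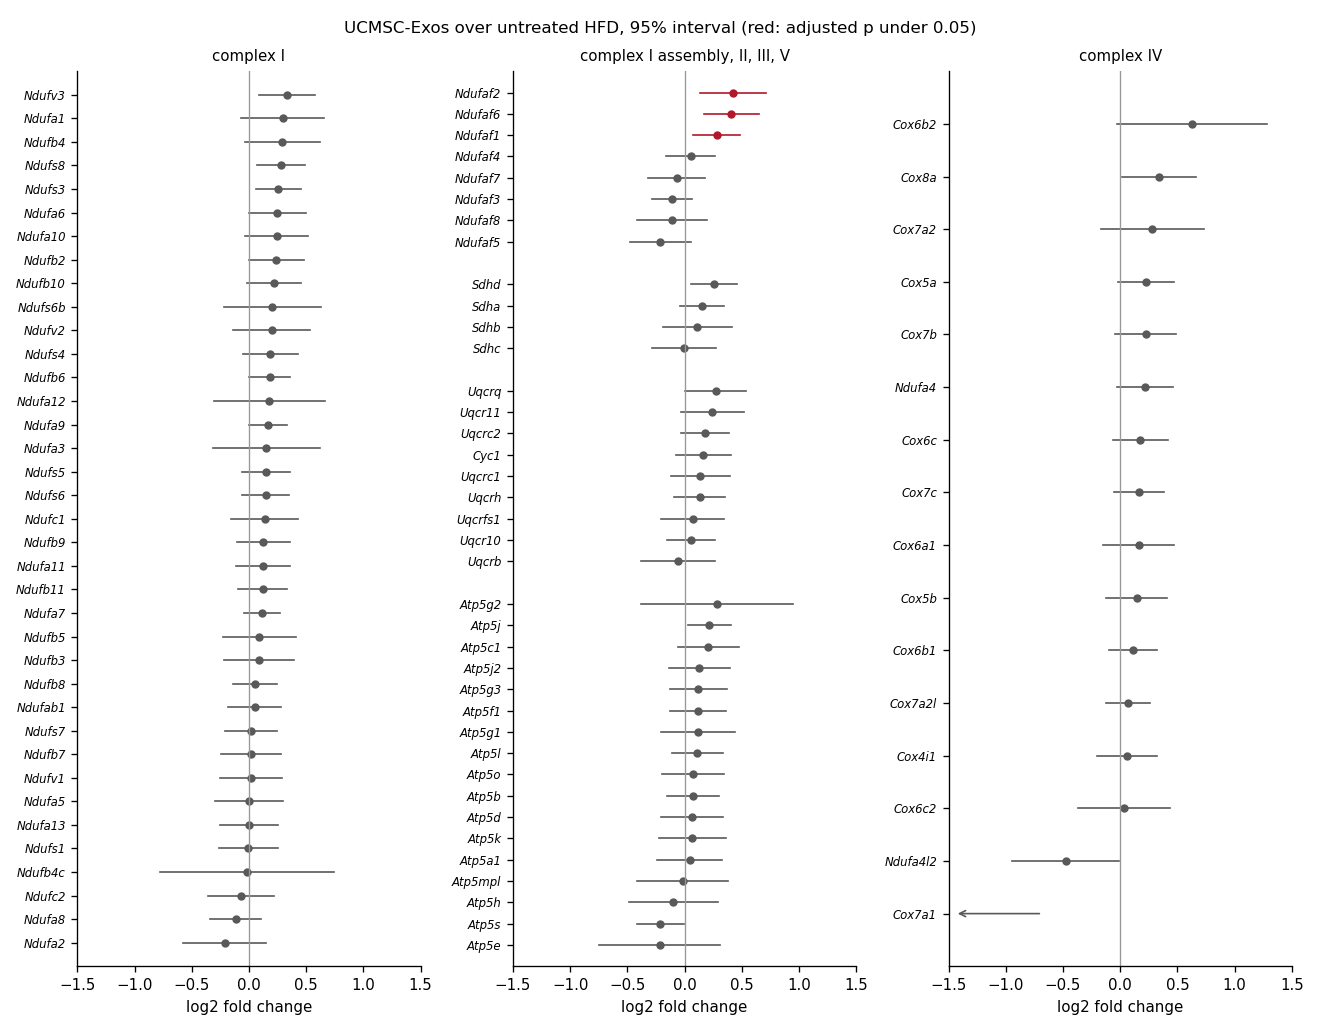
Log2 fold change of UCMSC-Exos over untreated HFD for the tested members shown (x axis; points, with lines for the 95% interval), grouped by complex, with members past the adjusted threshold in red. The points of most subunits lie between 0 and 0.3, only Ndufaf6, Ndufaf2 and Ndufaf1 are red, and the estimate of Cox7a1, at -3.05, is beyond the axis (arrow).

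The direction depended on how libraries were scaled. The TMM factors were 1.18 in UCMSC-Exos library 9 and 0.868 to 0.945 in the other UCMSC-Exos libraries, against 0.973 to 1.12 in untreated HFD libraries. With libraries scaled by total counts alone, a setting added after the data were seen, the median of all genes shifted by -0.17 and that of the members was -0.06, with 28 of 92 above 0. Relative to the median of all genes the members stood 0.13 higher under total counts and 0.15 higher under TMM. As a share of all reads the members made up 0.929 to 1.10% in UCMSC-Exos livers (median 0.999%) and 0.932 to 1.38% in untreated HFD livers (median 0.982%), ranges that overlap. With 3 surrogate variables in the fit, the members' median was -0.03, equal to 0.02 below that of all genes.

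The assembly factors of complex I are not part of the finished enzyme; they hold and modify its parts while it is put together. Ndufaf6, which acts early in building the membrane arm (chromosome 4, 11051045 to 11076205, minus strand, mm10), had 9.76 to 17.1 CPM in UCMSC-Exos livers (median 13) and 8.17 to 13.5 CPM in untreated HFD livers (median 9.65). The groups overlapped, with library 9 lowest among UCMSC-Exos and library 3 highest among untreated HFD, but 8 of 8 UCMSC-Exos livers stood above the untreated median. Its log2 fold change was 0.41 ± 0.11 (SE; adjusted p = 0.0191, edgeR), and it passed in 17 of the 17 fits that left out 1 library each. It did not pass under total count scaling (0.23, adjusted p = 0.0971) or with surrogate variables (0.29, adjusted p = 0.167).

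Ndufaf2, which binds late intermediates in the place of the subunit Ndufa12 (chromosome 13, 108002715 to 108158623), had 6.75 to 13.5 CPM in UCMSC-Exos livers (median 9.87) and 5.22 to 8.93 CPM in untreated HFD livers (median 8.36). UCMSC-Exos libraries other than 9 all lay above the highest untreated value. Its log2 fold change was 0.42 ± 0.14 (SE; adjusted p = 0.0363, edgeR), and it passed in 9 of 17 leave-one-out fits. Without untreated libraries 3 and 9 together Ndufaf2 stood at 0.38 and did not pass (adjusted p = 0.053, edgeR), whereas Ndufaf6 and Ndufaf1 did. Ndufaf1, a core member of the complex that assembles the membrane arm (chromosome 2, 119655446 to 119662827), had 16.2 to 26.5 CPM in UCMSC-Exos livers (median 25.9) and 17.9 to 25.5 CPM in untreated HFD livers (median 19.4). The UCMSC-Exos values outside library 9 were close together between 24.3 and 26.5 CPM, and the high untreated values were those of libraries 9 and 5. Its log2 fold change of 0.28 ± 0.10 (SE) was just past the threshold (adjusted p = 0.0491, edgeR) and passed in 3 of 17 leave-one-out fits. Neither passed under total count scaling, at 0.24 (adjusted p = 0.166) for Ndufaf2 and 0.10 (adjusted p = 0.342) for Ndufaf1, or with surrogate variables, at 0.11 (adjusted p = 0.764) for Ndufaf2 and 0.03 (adjusted p = 0.881) for Ndufaf1.

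**Figure D2:**
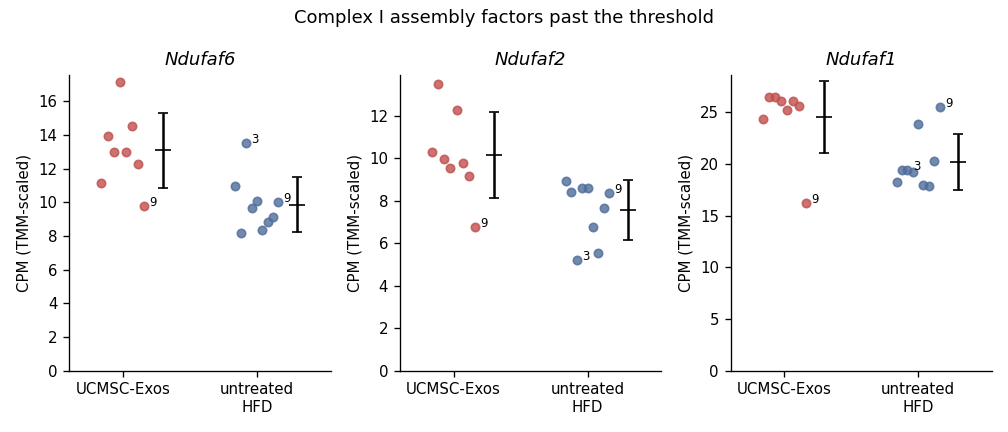
CPM of Ndufaf6, Ndufaf2 and Ndufaf1 in each library (points; UCMSC-Exos left, 8 libraries, and untreated HFD right, 9 libraries), with mean ± SD as bars and libraries 3 and 9 numbered. In each panel library 9 is the lowest of the UCMSC-Exos points, and for Ndufaf1 it is below every untreated point.

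The other 5 assembly factors under the Nduf stem did not pass, and 4 of them had estimates below 0. Ndufaf5, a hydroxylase that modifies the core subunit Ndufs7, had a log2 fold change of -0.21 ± 0.13 (SE), with 1 of 8 UCMSC-Exos livers above the untreated median. Ndufaf3 and Ndufaf4, which act together on the peripheral arm, stood at -0.11 and 0.05, Ndufaf7, a methyltransferase that acts on complex I, at -0.07, and Ndufaf8, the partner of Ndufaf5, at -0.11. The median of all 8 was -0.01. Under total count scaling Ndufaf3 was among the 3 members that passed, in the lower direction.

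The promoters of 2 of the 3 called factors are in the RefSeq promoter table used here (GRCm38.p6, the build of the counts; 250 bases before to 50 after the start). They are shown because these genes carry the only calls, with capitals marking matches to the SP1 motif GGGCGG, the one searched motif either of them held.
Ndufaf1, chr2:119662785-119663084, minus strand: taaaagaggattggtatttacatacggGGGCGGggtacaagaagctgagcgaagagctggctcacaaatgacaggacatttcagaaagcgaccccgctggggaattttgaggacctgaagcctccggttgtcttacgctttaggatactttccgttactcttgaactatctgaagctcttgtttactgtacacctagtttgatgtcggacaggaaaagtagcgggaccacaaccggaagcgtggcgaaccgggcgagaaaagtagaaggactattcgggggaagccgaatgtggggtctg
Ndufaf2, chr13:108158576-108158875, minus strand: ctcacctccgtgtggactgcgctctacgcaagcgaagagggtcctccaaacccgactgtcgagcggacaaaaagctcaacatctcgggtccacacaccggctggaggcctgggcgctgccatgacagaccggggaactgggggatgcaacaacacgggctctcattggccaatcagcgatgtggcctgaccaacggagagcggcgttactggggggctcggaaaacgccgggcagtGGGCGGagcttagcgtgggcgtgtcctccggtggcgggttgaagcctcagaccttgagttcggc

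Complex I has core subunits, which carry the flavin and iron-sulfur clusters, and accessory subunits around them. Of its 38 tested members none passed; their median was 0.13, 32 were above 0, and 6 had an unadjusted p under 0.05. Closest to the threshold came Ndufv3, an accessory subunit beside the NADH site, with 36.2 to 68.0 CPM in UCMSC-Exos livers (median 52.7) and 28.0 to 51.7 CPM in untreated HFD livers (median 40.7). All UCMSC-Exos values but that of library 9 were above the untreated median, and the fold change was 0.34 ± 0.12 (log2, SE; adjusted p = 0.0505, edgeR). Among the 7 core subunits Ndufs8, which holds 2 of the clusters, ranged from 44.6 to 70.0 CPM in UCMSC-Exos livers (median 62.9) and from 41.0 to 69.6 CPM in untreated HFD livers (median 47.1), a log2 fold change of 0.28 ± 0.10 (SE; adjusted p = 0.0562, edgeR). The top untreated value was again library 9. Ndufs3, on the way to the quinone site, followed at 0.26 ± 0.09 (SE; adjusted p = 0.0592, edgeR), whereas Ndufs1, the largest cluster-bearing subunit, stood at -0.0045 with an interval of -0.27 to 0.26.

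The accessory subunits differed little by their place in the enzyme: medians were 0.17 for 10 in the peripheral arm, 0.14 for 9 in the proximal and 0.11 for 12 in the distal membrane arm. Ndufb6 in the distal arm had 32.8 ± 3.9 CPM in UCMSC-Exos livers and 28.9 ± 3.5 CPM in untreated HFD livers (SD, n = 8 and 9; log2 fold change 0.18, adjusted p = 0.134, edgeR). Ndufa6 had 98.5 ± 15.2 CPM in UCMSC-Exos livers and 82.9 ± 14.8 CPM in untreated HFD livers (adjusted p = 0.137, edgeR). The lowest estimate in the complex, -0.21 for Ndufa2, came from 1 library: library 3 of untreated HFD had 139 CPM, against 45.9 to 76.9 CPM in UCMSC-Exos livers, and without libraries 3 and 9 the estimate was 0.01.

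In complex II, Sdha binds succinate and flavin, Sdhb carries the iron-sulfur clusters, and Sdhc and Sdhd anchor them in the membrane. None of the 4 passed. Sdhd (chromosome 9, 50596357 to 50603812) had 122 to 173 CPM in UCMSC-Exos livers (median 166) and 88.2 to 156 CPM in untreated HFD livers (median 133), a log2 fold change of 0.26 ± 0.10 (SE; adjusted p = 0.0636, edgeR). Library 3 was the low untreated value and library 9 the high one, and 7 of 8 UCMSC-Exos values were above the untreated median. Sdha had 617 ± 67 CPM in UCMSC-Exos livers and 556 ± 72 CPM in untreated HFD livers, a log2 fold change of 0.15 (SD, n = 8 and 9). Sdhb had 177 ± 29 CPM in UCMSC-Exos livers and 164 ± 44 CPM in untreated HFD livers, a log2 fold change of 0.11. Sdhc stood at -0.01 (interval -0.29 to 0.27), and again library 3 of untreated HFD decided it: it had 328 CPM, against a median of 194 CPM in UCMSC-Exos livers, and the estimate without libraries 3 and 9 was 0.17. Sdhd is the tested member of smallest p whose promoter held 3 of the searched motifs, NRF1, SP1 and, on the other strand, ERR, marked in capitals in that order.
Sdhd, chr9:50603800-50604099, minus strand: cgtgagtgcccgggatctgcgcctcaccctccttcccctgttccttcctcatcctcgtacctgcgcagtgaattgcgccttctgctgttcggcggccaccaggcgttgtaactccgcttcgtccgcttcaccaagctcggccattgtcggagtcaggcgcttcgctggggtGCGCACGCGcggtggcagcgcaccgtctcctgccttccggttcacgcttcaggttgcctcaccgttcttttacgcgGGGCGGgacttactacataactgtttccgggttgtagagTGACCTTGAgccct

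In complex III, which moves electrons from ubiquinol to cytochrome c, none of 9 subunits passed and 8 had estimates above 0, with a median of 0.14. Uqcrq, a small subunit next to cytochrome b, had the smallest p: 157 to 277 CPM in UCMSC-Exos livers (median 212) and 95.2 to 208 CPM in untreated HFD livers (median 186), a log2 fold change of 0.27 ± 0.13 (SE; adjusted p = 0.137, edgeR). The low untreated value was library 3. Uqcr11 and the core subunit Uqcrc2 followed at 0.24 and 0.18 (adjusted p = 0.192 and 0.203, edgeR). The catalytic subunits Cyc1, which holds cytochrome c1, and Uqcrfs1, the Rieske iron-sulfur protein, stood at 0.16 and 0.07, with intervals of -0.08 to 0.40 and -0.20 to 0.34. The core subunit Uqcrc1 had 247 ± 32 CPM in UCMSC-Exos livers and 224 ± 52 CPM in untreated HFD livers (SD, n = 8 and 9).

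Complex IV has nuclear subunits found in all tissues and tissue isoforms that replace them, chiefly in heart and skeletal muscle. The 12 members classed here as common, Cox7a2l and Ndufa4 included, all had estimates above 0 under TMM (median 0.17), and none passed. Ndufa4 was first assigned to complex I. Under total count scaling 5 of the 12 were above 0. Cox8a, the liver form of subunit 8, had the largest, 98.7 to 189 CPM in UCMSC-Exos livers (median 160) and 53.9 to 155 CPM in untreated HFD livers (median 131), a log2 fold change of 0.34 ± 0.16 (SE; adjusted p = 0.127, edgeR). Library 9 was the lowest UCMSC-Exos value and library 3 the lowest untreated one. Cox4i1, the regulatory subunit that binds ATP, had 285 ± 28 CPM in UCMSC-Exos livers and 274 ± 73 CPM in untreated HFD livers (SD, n = 8 and 9; log2 fold change 0.06). Its lung-enriched isoform Cox4i2 was at or below 0.38 CPM in UCMSC-Exos livers and 0.84 CPM in untreated HFD livers, too low to be tested. Ndufa4 stood at 0.21, Cox6b1 at 0.12, Cox7b at 0.22 and Cox7a2 at 0.28, and Cox7a2l at 0.07 with 8 of 8 UCMSC-Exos livers above the untreated median. The low-level relatives were Cox6b2, a testis isoform, at 0.63 ± 0.31 (SE) with its top UCMSC-Exos value in library 9 (1.46 CPM), and Ndufa4l2, a hypoxia-induced relative of Ndufa4, at -0.48 ± 0.22 (SE), with 0.62 to 1.61 CPM in UCMSC-Exos livers and 1.18 to 2.76 CPM in untreated HFD livers. Neither passed (adjusted p = 0.154 and 0.129, edgeR), and none of the 8 UCMSC-Exos livers was above the untreated median for Ndufa4l2.

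The muscle isoforms of complex IV were found in 1 liver library. Cox6a2 (chromosome 7, 128205435 to 128206387) had 0 to 0.38 CPM in UCMSC-Exos livers, and 166 CPM in library 9 of untreated HFD against at most 0.51 CPM in the other untreated livers. Cox8b (chromosome 7, 140898945 to 140900446) had 0 to 0.14 CPM in UCMSC-Exos livers, and 62.5 CPM in that same untreated library. Cox7a1 (chromosome 7, 30184144 to 30186078) had 0.21 to 0.71 CPM in UCMSC-Exos livers and 29.9 CPM there, with 0.21 to 0.72 CPM in the other 8 untreated livers. This is the library with 4260 CPM of Acta1, 918 CPM of Ckm and 2015 CPM of Myh1, the actin, creatine kinase and myosin of skeletal muscle; its heart markers were low, with Myh6 at 0.53 CPM and Nppa at 0. The estimate for Cox7a1, -3.05 ± 1.12 (log2, SE; adjusted p = 0.0636, edgeR), rested on that library: without it the value was 0.22 (adjusted p = 0.646). Under total count scaling, with that library in the fit, Cox7a1 passed at -3.25 (adjusted p = 0.0474, edgeR). In the same library the liver isoforms Cox6a1 and Cox8a were below their untreated medians, at 176 CPM against 260 CPM for Cox6a1 and 112 CPM against 131 CPM for Cox8a. Cox7a2, the common counterpart of Cox7a1, was above its untreated median there, at 92.8 CPM against 77.1 CPM, the highest untreated value, and 81 of the 92 tested members lay above the range of the untreated livers other than 3 and 9. In whole tissue, fewer cells of a type and less RNA per cell cannot be told apart.

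**Figure D3:**
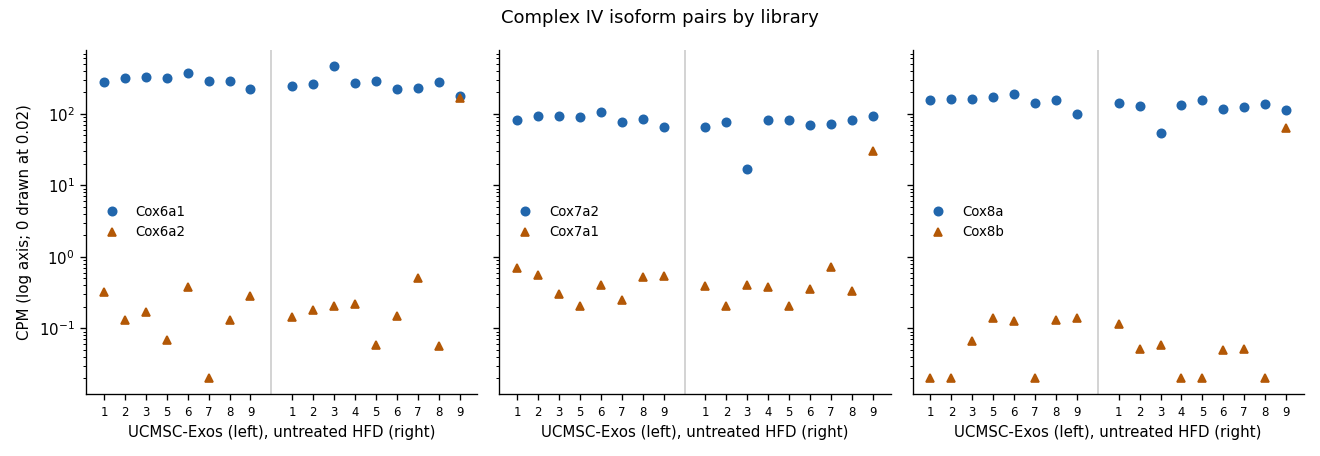
CPM on a log axis (values of 0 drawn at 0.02) of 3 pairs of complex IV isoforms in each library, UCMSC-Exos left and untreated HFD right; circles are the common forms Cox6a1, Cox7a2 and Cox8a, triangles the muscle forms Cox6a2, Cox7a1 and Cox8b. The triangles stay below 1 CPM except in untreated HFD library 9, where they reach 166, 29.9 and 62.5 CPM, and library 3 holds the low circles of Cox7a2 (16.8 CPM) and Cox8a (53.9 CPM).

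The promoters of the subunit 8 pair are shown because the pair separates the muscle-bearing library from the rest. The liver form held 2 matches to the ETS motif CCGGAAGT, both on the other strand and in capitals, and the muscle form held none of the 5 motifs searched.
Cox8a, chr19:7217567-7217866, minus strand: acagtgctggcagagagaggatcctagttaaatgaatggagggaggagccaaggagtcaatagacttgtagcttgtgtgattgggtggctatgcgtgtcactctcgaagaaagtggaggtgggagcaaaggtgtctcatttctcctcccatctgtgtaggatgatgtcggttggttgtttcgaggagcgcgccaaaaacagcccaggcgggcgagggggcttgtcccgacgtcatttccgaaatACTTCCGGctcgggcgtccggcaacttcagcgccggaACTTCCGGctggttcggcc
Cox8b, chr7:140900397-140900696, minus strand: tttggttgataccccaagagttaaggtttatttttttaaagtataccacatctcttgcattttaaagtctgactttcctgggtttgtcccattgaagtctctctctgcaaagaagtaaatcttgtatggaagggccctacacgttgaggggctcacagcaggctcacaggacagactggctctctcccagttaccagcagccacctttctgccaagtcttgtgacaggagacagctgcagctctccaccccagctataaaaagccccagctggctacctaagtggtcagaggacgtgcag

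Complex V makes ATP in its F1 head, driven by the membrane-bound Fo part through a stalk. None of 17 tested subunits passed; the median was 0.08 and 13 estimates were above 0. For each of the head subunits Atp5a1 and Atp5b, the groups differed by less than the spread between libraries. Atp5a1 had 1040 ± 123 CPM in UCMSC-Exos livers and 1008 ± 265 CPM in untreated HFD livers, and Atp5b had 1250 ± 131 CPM in UCMSC-Exos livers and 1189 ± 209 CPM in untreated HFD livers (SD, n = 8 and 9), log2 fold changes of 0.05 and 0.07. Atp5j, coupling factor 6 of the stalk, had the smallest p, with 104 to 149 CPM in UCMSC-Exos livers (median 132) and 94.2 to 151 CPM in untreated HFD livers (median 109), a log2 fold change of 0.22 ± 0.09 (SE; adjusted p = 0.092, edgeR). The rotor shaft subunit Atp5c1 stood at 0.21 (adjusted p = 0.247, edgeR). Atp5s, a coupling factor that is not a fixed subunit, went the other way, with 5.48 to 6.99 CPM in UCMSC-Exos livers and 5.78 to 8.86 CPM in untreated HFD livers, and none of the 8 UCMSC-Exos livers was above the untreated median. Its log2 fold change of -0.21 ± 0.10 (SE) did not pass (adjusted p = 0.133, edgeR), but did under total count scaling (-0.38, adjusted p = 0.018). The 3 genes for the identical ring subunit c, Atp5g1, Atp5g2 and Atp5g3, stood at 0.12, 0.29 and 0.12, and library 3 of untreated HFD had 4.99 CPM of Atp5g2 against a group mean of 78.5 ± 8.4 CPM in UCMSC-Exos livers (SD, n = 8).

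Per exon length, levels within a complex were far from equal. RPKM, the CPM per 1000 bases of merged exons, had in UCMSC-Exos livers medians of 43.3 in complex I, 104 in complex II, 96.7 in complex III, 93.9 in complex IV and 47.0 in complex V, leaving out tissue isoforms and gene copies, and in untreated HFD livers 37.4 in complex I, 90.7 in complex II, 86.3 in complex III, 80.7 in complex IV and 44.9 in complex V. The assembly factors were lower, at 7.04 RPKM in UCMSC-Exos livers and 7.12 RPKM in untreated HFD livers, led by Ndufaf1 (16.4 ± 2.3 RPKM in UCMSC-Exos, 13.5 ± 1.8 RPKM in untreated HFD) with Ndufaf5 lowest (2.60 ± 0.41 RPKM in UCMSC-Exos, 3.01 ± 0.53 RPKM in untreated HFD). Cox6a1 had the highest level of all members, 430 ± 64 RPKM in UCMSC-Exos livers and 385 ± 116 RPKM in untreated HFD livers (SD, n = 8 and 9). Next came Atp5a1 (332 ± 39 RPKM in UCMSC-Exos, 322 ± 85 RPKM in untreated HFD) and Atp5b (295 ± 31 RPKM in UCMSC-Exos, 281 ± 49 RPKM in untreated HFD), the subunits that alternate in the F1 head. The difference between these subunits within each library was not tested. In complex II Sdha led (150 ± 16 RPKM in UCMSC-Exos, 135 ± 18 RPKM in untreated HFD), close to Sdhd (130 ± 13 RPKM in UCMSC-Exos, 108 ± 16 RPKM in untreated HFD), and Sdhc was lowest (58.0 ± 6.5 RPKM in UCMSC-Exos, 58.2 ± 17 RPKM in untreated HFD). In complex III Uqcrfs1 and Uqcr11 overlapped at the top (133 ± 18 RPKM for Uqcrfs1 and 130 ± 24 RPKM for Uqcr11 in UCMSC-Exos livers) and Uqcrc1 was among the lowest (59.6 ± 7.8 RPKM in UCMSC-Exos, 54.2 ± 12.5 RPKM in untreated HFD). Among core subunits of complex I Ndufs1 was lowest (14.7 ± 1.7 RPKM in UCMSC-Exos, 14.8 ± 3.7 RPKM in untreated HFD). The lowest accessory subunit was Ndufb2 (1.41 ± 0.24 RPKM in UCMSC-Exos, 1.19 ± 0.16 RPKM in untreated HFD). Lengths are merged over all annotated exons, at 5628 bases for Ndufb2 and 8086 bases for Ndufs1, and multi-mapping reads were not counted. The part of either in the order of levels was not tested, so the order need not be that of the transcripts.

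**Figure D4:**
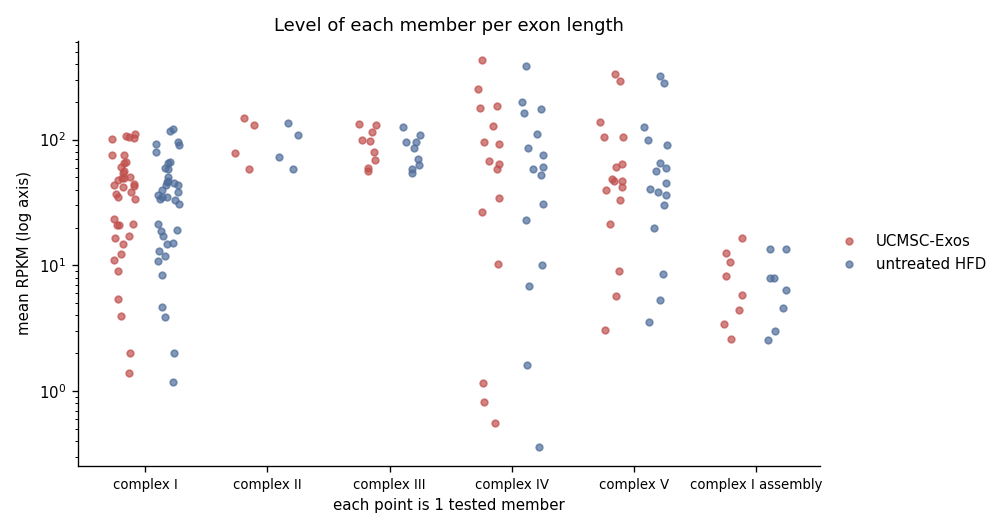
Mean RPKM on a log axis for each tested member by complex, UCMSC-Exos (red, left) and untreated HFD (blue, right). Members of 1 complex spread over more than 10-fold in complexes I, IV and V, and the groups overlap throughout; the lowest points of complex IV are the tissue isoforms.

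After TMM scaling, which moves all genes of a library alike, members moved together across libraries. As the mean over the 92 members of log2 CPM minus the untreated median, the UCMSC-Exos libraries other than 9 had 0.12 to 0.37, and library 9 had -0.26. Untreated HFD libraries other than 9 had -0.15 to 0.11, and library 9 had 0.49, the highest of all 17. Complexes I, II, III and V had the same libraries at both ends. Complex IV was highest in UCMSC-Exos library 6 (0.45, against 0.33 in untreated library 9) and lowest in untreated library 3 (-0.26, against -0.23 in UCMSC-Exos library 9), and the assembly factors were highest in UCMSC-Exos library 5 (0.31, against 0.15 in untreated library 9). In UCMSC-Exos library 9 the means of the 6 sets were -0.34 to -0.23, and 85 of 92 members had their lowest UCMSC-Exos value there. At least 7 of the 8 UCMSC-Exos libraries stood above the untreated median for 66 of the 92 members; the same held for 25% of all genes tested. These members share their libraries and scaling, so the count is not that of independent genes. Without TMM scaling, as a share of all reads, the members made up 0.967 to 1.10% in UCMSC-Exos libraries other than 9 and 0.929% in library 9. Untreated HFD libraries other than 3 and 9 had 0.932 to 1.01%, library 3 had 1.21% and library 9 had 1.38%. The part of scaling in the means above was not tested.

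**Figure D5:**
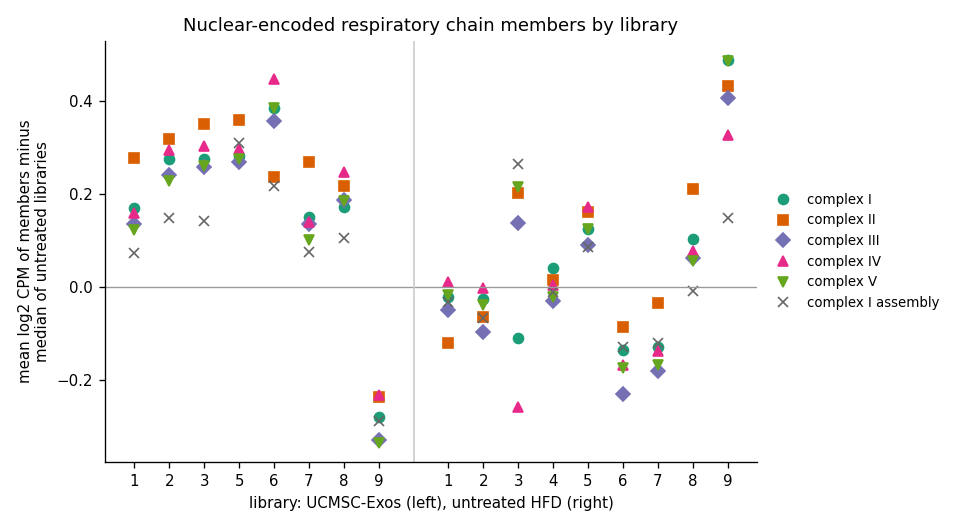
Mean over the tested members of each complex of log2 CPM (TMM-scaled) minus the median of the untreated libraries, by library, UCMSC-Exos left and untreated HFD right (complex IV without its tissue isoforms). UCMSC-Exos libraries other than 9 lie above 0 in every complex, library 9 lies at -0.34 to -0.23, and untreated library 9 is above 0.3 in complexes I to V.

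The calls changed with those libraries. Without UCMSC-Exos library 9, 18 members passed, all higher (35.7% of all genes tested passed); without untreated HFD library 9, 16 passed, all higher (18.1% of all genes); and without untreated libraries 3 and 9 together, 25 passed, all higher, with a members' median of 0.21 (20.6% of all genes). Counting both directions, only the last of these gave the members a share above that of all genes. The share of all genes that were higher was not counted in these fits, so shares in that direction alone cannot be compared. limma voom with quality weights, which weights libraries down when they stand apart, called 63 members higher and 1 lower, also a share above that of all genes (47.5%). Untreated library 3 stood apart in both directions: 46 members were above and 32 below the range of the untreated livers other than 3 and 9, with an SD of 0.87 (log2) around them, led by Atp5g2 and Cox7a2 below and Atp5e and Atp5h above.

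Cell type markers also differed between groups and libraries, and followed the members' level only in part. Summed hepatocyte markers were 53970 to 75130 CPM in UCMSC-Exos libraries other than 9 and 40270 CPM in library 9, against 33450 to 51880 CPM in untreated HFD libraries. The lowest of these sums, 33450 CPM, was that of the muscle-bearing untreated library 9, where the members' mean was highest. Among UCMSC-Exos libraries other than 9, library 6 had the highest members' mean (0.37) with the lowest sum (53970 CPM). Library 1 had the highest sum (75130 CPM) with a mean of 0.16. Alb made up most of these sums, at 54580 CPM in library 1 and 34110 CPM in library 6. Single markers differed: Apoa1, Ttr and Serpina1c were higher in library 6 than in library 1, whereas Alb, Hnf4a, Cps1 and Cyp2e1 were lower. Summed biliary markers (Krt19, Krt7, Epcam, Sox9 and Spp1) were 48.2 to 126 CPM in UCMSC-Exos libraries other than 9 and 577 CPM in library 9, against 117 to 513 CPM in untreated HFD libraries, of which 1, 6 and 7 had 480 to 513 CPM and member means of -0.15 to -0.01. Summed stellate cell markers were 313 to 469 CPM in UCMSC-Exos libraries other than 9 and 1114 CPM in library 9, against 464 to 1014 CPM in untreated HFD libraries. No marker of these 3 lists was at 0 in any library. Their part in the members' differences was not tested.

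Promoter letters were compared between members and genes at large. Of the 98 member symbols 74 had a RefSeq promoter of 300 bases. The NRF1 motif GCGCANGCG, searched on both strands like the others, was in 22 of the 74 (29.7%), against 7.03% of all 27025 genes with a promoter and 13.7% of the 11488 that were tested here. The YY1 motif AAGATGGCG was in 8 (10.8%, against 1.64% and 3.19%), and the ERR motif TNAAGGTCA in 3 (4.05%, against 1.43% and 1.04%). The ETS motif was in 5 (6.76%, against 4.31% and 8.24%) and the SP1 motif GGGCGG in 33 (44.6%, against 38.2% and 64.4%). By complex, the NRF1 motif was in 8 of 32 promoters of complex I, 2 of 3 of complex II, 2 of 5 of complex III, 1 of 14 of complex IV and 7 of 13 of complex V, and in 2 of 7 of the assembly factors. A match is a description of the letters and not of binding.

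Around the nuclear subunits, the 13 mitochondrially encoded ones had larger estimates and none passed. Their median log2 fold change was 0.51 with 13 of 13 above 0, against 0.31 with 13 above 0 under total count scaling and 0.15 with 11 above 0 with surrogate variables. Closest was mt-Atp8, with 2.23 ± 0.48 CPM in UCMSC-Exos livers and 1.23 ± 0.54 CPM in untreated HFD livers (SD, n = 8 and 9; adjusted p = 0.0661, edgeR). Its level was the lowest of the 13. Multi-mapping reads were not counted, and the part of this in the levels of the 13 was not tested. The core subunit mt-Co1 of complex IV had 10510 to 17660 CPM in UCMSC-Exos livers, within the untreated HFD range of 1515 CPM in library 3 to 24780 CPM in library 9. Without those 2 libraries the median was 0.64 and 12 of 13 passed, against 20.6% of all genes tested. These transcripts share their libraries and scaling, so the count is not that of independent genes.

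Of 46 tested assembly factors and cytochrome c genes outside the symbol rule, 4 were higher and 1 lower, together 10.9% against 20.2% of all genes tested. Dmac2 had 25.4 to 38.0 CPM in UCMSC-Exos livers and 22.5 to 30.8 CPM in untreated HFD livers, a log2 fold change of 0.32 ± 0.08 (SE; adjusted p = 0.00895, edgeR). Dmac1, which builds the distal membrane arm of complex I, rose by 0.35 ± 0.09 (SE; adjusted p = 0.0104, edgeR), and Higd2a, a factor for complex IV and supercomplexes, by 0.42 ± 0.12 (SE; adjusted p = 0.0262, edgeR). Ecsit, a partner of Ndufaf1 in the membrane-arm assembly complex, rose by 0.34, and Cox20, a chaperone of mt-Co2, fell by 0.92 (adjusted p = 0.0456, edgeR), with its top untreated value of 1.60 CPM in library 3. Without that library the estimate was -0.60 and did not pass (adjusted p = 0.0649, edgeR). The median of the list was 0.07.

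None of the genes named as higher among those assembly factors and in the lists that follow passed under total count scaling or with surrogate variables. The share called in either direction was 7.69% for coenzyme Q genes and 11.8% for genes of mitochondrial transcription and biogenesis. For carriers and channels it was 16.7%, and for uncoupling and hypoxia genes 9.09%, against 20.2% of all genes tested. Among 13 coenzyme Q genes only Coq10b, which binds the quinone, passed, at 0.40 ± 0.12 (log2, SE; adjusted p = 0.0253, edgeR), and the median was 0.06. Of 17 genes of mitochondrial transcription and biogenesis, Tfb2m, a factor for mitochondrial transcription, and Gabpa, the ETS-family factor known for binding promoters of complex IV genes, rose by 0.30 and 0.23 (adjusted p = 0.0224 and 0.023, edgeR). Of 77 tested mitochondrial ribosomal protein genes 6 rose (7.79%, against 9.73% of all genes) and none fell, among them Mrps5, Mrps7 and Mrpl21 at 0.26, 0.32 and 0.22, with a list median of 0.10. None of 19 genes of the tricarboxylic acid cycle and pyruvate dehydrogenase passed; Idh2 was nearest, with 159 ± 10 CPM in UCMSC-Exos livers and 215 ± 80 CPM in untreated HFD livers, a log2 fold change of -0.43 (SD, n = 8 and 9; adjusted p = 0.0505, edgeR). Untreated library 9 had 422 CPM of it, and without that library the estimate was smaller, -0.24, and passed (adjusted p = 0.0196, edgeR). Of 6 carriers and channels Slc25a4, the ADP/ATP carrier of muscle and heart, was called lower at -2.87 ± 0.96 (log2, SE; adjusted p = 0.0456, edgeR), which rested on untreated library 9 (761 CPM, against 8.52 to 27.3 CPM in UCMSC-Exos livers) and was -0.45 without it (adjusted p = 0.14). Of 11 uncoupling and hypoxia genes only Hk2, the hexokinase of muscle and growing cells, passed. It had 5.11 to 25.2 CPM in UCMSC-Exos livers and 25.3 to 104 CPM in untreated HFD livers, so the groups nearly met but did not overlap. It fell by 1.70 ± 0.32 on the log2 scale (SE; adjusted p = 0.00204, edgeR), and passed in 17 of 17 leave-one-out fits. The top untreated value was library 9, and without that library the estimate was smaller, -1.37 (adjusted p = 0.000789, edgeR). With surrogate variables it was -0.998 (adjusted p = 0.00367, edgeR).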

How the data were processed

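Liver RNA-seq of 8 UCMSC-Exos and 9 untreated HFD mice was read from 1 deposited table of counts. The tools named in the submitters' processing notes are fastp 1.3.3, HISAT2 2.2.1, Subread 2.0.2 and featureCounts, with build mm10. Per the file headers, the authors' counts came from featureCounts 2.1.1 over GENCODE vM25 exons in paired mode, counting reads rather than pairs, without strand and without multi-mapping reads; they are not normalized. The table also had 1 column with no matching sample, which was left out. Of 55401 IDs, 55141 matched a symbol.

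The test was that of edgeR 4.0.16 in R 4.3.3 (filterByExpr with a minimum count of 10, TMM, robust quasi-likelihood F test, two-sided, Benjamini-Hochberg over all 16238 genes tested, threshold 0.05). RPKM was computed from CPM and the deposited exon lengths. Steps were tested on simulated counts. The closest libraries differed by 3.79 times the sampling noise, so none was taken as a copy. Reads of overlapping antisense genes cannot be told apart. No batch, litter or date is given. Same-numbered libraries did not deviate together, so the numbers were not used as pairs. Members, gene lists and tests were chosen with earlier results of these data known. Alternatives were RLE, upper quartile and total count scaling, other filters, the replicate number as a block, 3 surrogate variables (sva 3.50.0), DESeq2 1.42.0, limma 3.58.1 voom, and leaving out libraries. Members were named if they passed, if among the 3 of smallest p or at the highest or lowest RPKM of their class, or if a tissue isoform or its partner; in other lists up to 3 that passed or the 1 of smallest p were named. The other list members, Cyc1 and the remaining assembly and ring subunits were added to describe their roles after values were seen. One result on a member named by this rule is not reported here.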

Additional observations from a re-analysis of the deposited data

Results flagged for a closer look

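Single libraries stood far from the rest of their group for several named members, by a gap to the nearest other library that was large against the group's range. Library UCMSC-Exos 9 was such a lowest value for Ndufaf1 (16.2 CPM), Ndufs8 (44.6 CPM), Ndufv2 (51.9 CPM), Sdhd (122 CPM), Sdhb (108 CPM), Sdhc (138 CPM), Uqcrfs1 (123 CPM), Uqcrc1 (173 CPM), Atp5c1 (146 CPM), Atp5a1 (754 CPM) and Cox6b1 (85.7 CPM). Library UCMSC-Exos 9 was such a highest value for Cox6b2 (1.46 CPM) and Cox4i2 (0.376 CPM). Library UCMSC-Exos 5 was such a highest value for Ndufaf5 (6.2 CPM). Library untreated HFD 3 was such a lowest value for Ndufa6 (49.5 CPM), Sdhd (88.2 CPM), Uqcrq (95.2 CPM), Cox8a (53.9 CPM) and Cox7a2 (16.8 CPM). Library untreated HFD 3 was such a highest value for Ndufa2 (139 CPM), Sdhc (328 CPM), Cox6a1 (468 CPM), Cox4i1 (447 CPM) and Cox7a2l (132 CPM). Library untreated HFD 9 was such a highest value for Ndufv2 (127 CPM), Cox7a1 (29.9 CPM), Atp5j (151 CPM), Atp5c1 (279 CPM), Cox4i2 (0.836 CPM), Cox6a2 (166 CPM) and Cox8b (62.5 CPM). Chance alone gives about 1 such value in 20 groups, and 84 groups of named members were examined. The values gather in UCMSC-Exos 9, untreated HFD 3 and untreated HFD 9, the libraries with high biliary and stellate, pancreatic and muscle markers; the part of those markers in these values was not tested.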

How the results depend on the processing

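Of the 92 members, 3 passed in the fit described above, 5 with RLE size factors, 7 with DESeq2, 64 with voom quality weights, 25 without untreated HFD 3 and 9, and 1 each with no filter on low counts (Ndufaf6), with surrogate variables (Cox6b2, higher) and with the replicate block. Leaving out 1 library gave 1 to 18. Upper quartile scaling gave the same 3 genes and a filter of 1 CPM in 8 libraries gave 4. Total count scaling gave 3 others, all lower, namely Ndufaf3, Atp5s and Cox7a1. The Cox7a1 estimate there, -3.25 (adjusted p = 0.0474, edgeR), had untreated HFD library 9 in the fit. Under TMM it was 0.22 without that library. Of all genes, 3274 passed in that fit, 891 with surrogate variables and 7711 with voom. The replicate numbers did not pair the libraries (correlations of -0.17 to 0.24, none best with its own number), and with the replicate block Ndufaf6 alone passed, at 0.41 (adjusted p = 0.0473). The median of complex IV was -0.032 with surrogate variables and that of the assembly factors -0.19 under total counts. The medians of complexes I to V, all above 0 in the fit described above, were below 0 in both settings. Relative to the median of all genes, complexes I, II, III and V stood at 0.14, 0.14, 0.14 and 0.08 under total counts. With surrogate variables they stood at -0.02, -0.03, 0.003 and -0.03 relative to it. Named genes whose estimate changed sign were, under total counts, Sdha -0.0272, Sdhb -0.074, Uqcrc2 -0.0006, Uqcrfs1 -0.11, Uqcrc1 -0.0444, Cox6a1 -0.0101, Atp5a1 -0.13, Cox4i1 -0.11, Cox6b1 -0.0646, Cox7a2l -0.0996; with surrogate variables, Ndufv2 -0.0784, Ndufb6 -0.0023, Ndufa6 -0.0166, Sdha -0.0322, Sdhb -0.0616, Uqcrq -0.0483, Uqcr11 -0.11, Uqcrc2 -0.0024, Uqcrfs1 -0.0068, Cox7a1 0.23, Cox8a -0.0942, Ndufa4 -0.0878, Cox6b1 -0.0845, Cox7a2 -0.0924, Cox7b -0.0405, Mrps7 -0.0275; without untreated HFD 3 and 9, Ndufs1 0.18, Ndufa2 0.0095, Sdhc 0.17, Cox7a1 0.23; with the replicate block, Ndufs1 0.0073, Sdhc 0.0141; with voom, Ndufs1 0.22, Sdhc 0.21; with RLE, Ndufs1 0.0043, Sdhc 0.0016; and with DESeq2, Ndufs1 0.0043, Sdhc 0.0016, Cox7a1 0.22. Over the fits that left out 1 library the range was -3.22 to 0.22 for Cox7a1, -0.0428 to 0.0896 for Ndufs1, -0.0435 to 0.13 for Sdhc. Except where libraries were left out, the cause was not tested. Counts near 0 limit what can be said of the muscle isoforms and Cox4i2 outside 1 library.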
